A study of Mus musculus with 15 samples.

Results

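The genes described here are the Wnt ligands, their receptors and the factors that modulate them, measured in mouse chondrocytes treated with 4 inhibitors. Members were the genes whose probe sets carried a single symbol of the Wnt, Fzd, Sfrp or Dkk families, together with Frzb, Wif1, Lrp5, Lrp6, Ror1, Ror2, Ryk, Kremen1, Axin2, Lef1, Tcf7l1, Tcf7l2, Ctnnb1, Rspo3, Lgr4 and Nkd1. They came to 54 of the 18193 genes named on the arrays and were read by 113 probe sets. Each gene was represented by its probe set with the highest mean over all arrays, 37 of the 54 having more than 1 to choose from. The members comprised 19 ligands, 10 Frizzled receptors, 5 other receptors or co-receptors, 11 inhibitors, 2 genes of the R-spondin axis, 4 intracellular genes, 2 feedback genes and Fzd10os, an antisense transcript caught by the spelling of its symbol. Tcf7 was searched for and not matched.

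Wnt proteins are secreted signals that bind Frizzled receptors at the cell surface, in the canonical branch together with the co-receptors Lrp5 and Lrp6. Binding stabilizes beta-catenin, the product of Ctnnb1, which enters the nucleus and acts through DNA-binding partners of the TCF and LEF family. Secreted Frizzled-related proteins, Wif1 and Dickkopf proteins hold the pathway back outside the cell, whereas R-spondins keep receptors at the surface. In the growth plate, Wnt signals are known to influence chondrocyte proliferation and hypertrophy.

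Cells came from the hind limb cartilage of CD1 mouse embryos at day 15.5 and were grown as primary monolayers. Treatments were LY294002, which inhibits PI3K, U0126, which inhibits the ERK kinase MEK, SB202190, known as an inhibitor of p38 kinases but listed in the deposited description with the MEK/ERK inhibitors, Trichostatin A, which inhibits histone deacetylases, and DMSO, the solvent, with 3 arrays each. LY294002 was used at 10 µM, and the doses of the others were not given in the sources used here. The sample labels and the methods give a treatment of 24 h, whereas the deposited description gives 2 h. The replicates were described as independent experiments, 3 per treatment. The main fit treated the 15 arrays as independent, and its p-values set a difference against the spread within treatments, pooled over these arrays. Same-numbered arrays of LY294002, U0126, SB202190 and DMSO varied together, as described with the processing. The main p-values and intervals leave this pairing out, and some results with the replicate number as a block are given beside them.

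RNA was hybridized to Affymetrix mouse arrays and each value is a log2 signal, so that a difference of 1 is a doubling. Array medians lay between 6.902 and 6.996, and no pair of arrays held identical values. All 12 chondrocyte markers checked were above the signal filter. So were all 10 markers of skeletal muscle, all 8 of fibroblasts and perichondrium, 7 of 8 of macrophages and osteoclasts (Ctsk, Csf1r and Lyz2 among them, Ptprc being below), 5 of 6 of epithelium (Epcam and Krt18 among them, Cdh1 being below) and 3 of 6 of endothelium (Kdr, Tek and Emcn, with Pecam1, Cdh5 and Vwf below). Over all arrays Tek averaged 5.69, Emcn 5.71 and Krt14 6.60, which lay below every array median. The median difference of the 12 chondrocyte markers from DMSO was 0.34 with LY294002, 0.52 with U0126, -0.25 with SB202190 and -1.91 with Trichostatin A. On the log2 scale their summed signal was 16.53 to 16.55 with LY294002, 16.50 to 16.71 with U0126, 15.98 to 16.19 with SB202190 and 15.09 to 15.48 with Trichostatin A, against 16.15 to 16.27 with DMSO. The markers called were Matn1, Comp and Col9a2 higher with LY294002, Matn1, Acan and Col9a2 higher with U0126, none with SB202190 and all 12 lower with Trichostatin A. Of the other lists, Krt18 was lower with LY294002 by -1.47 and with U0126 by -1.39 and higher with Trichostatin A by 2.19. It was the only one of the 5 epithelial markers tested that was called. The other 4 had lower means with Trichostatin A, and the median difference of the 5 was -0.10. The hypertrophic markers Ihh and Alpl were higher with U0126. Lyz2 was higher and Acp5 lower with LY294002, and Acp5 and Cd68 were higher with SB202190. With Trichostatin A 9 of 10 skeletal muscle, 5 of 8 fibroblast and perichondrium, 4 of 7 macrophage and osteoclast and 3 of 5 hypertrophic chondrocyte markers tested were lower, while Thy1, Twist1, Cd68 and Kdr were higher. In such bulk cultures fewer cells of a type and less RNA per cell cannot be told apart, and the part of these shifts in the results on the Wnt genes was not tested.

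Promoter windows from RefSeq, on GRCm38.p6, were available for 37 of the members as 45 windows, each spanning 300 bases around a transcription start. Those of the member with the largest called change in U0126, SB202190 and Trichostatin A are shown, with that of the ligand that increased most in Trichostatin A, so that the letters can be set beside the values that follow. They were chosen after the values had been seen. Capitals mark, on either strand, the GC box, spelled GGGCGG. They also mark the TATA box, spelled TATAAA, and a TCF/LEF motif that begins with the letters CTTTG and ends, after them, with AA, AT, TA or TT. A motif on the minus strand appears as its reverse complement. The Frzb window is chr2:80447347-80447646 on the minus strand, that of Wif1 chr10:121033754-121034053, that of Sfrp2 chr3:83766071-83766370 and that of Wnt11 chr7:98834862-98835161, all on the plus strand.
Frzb: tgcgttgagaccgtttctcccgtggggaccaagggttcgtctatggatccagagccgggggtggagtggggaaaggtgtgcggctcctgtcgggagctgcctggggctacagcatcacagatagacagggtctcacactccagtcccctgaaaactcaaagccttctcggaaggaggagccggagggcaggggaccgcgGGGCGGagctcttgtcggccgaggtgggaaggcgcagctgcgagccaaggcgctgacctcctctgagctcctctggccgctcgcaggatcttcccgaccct
Wif1: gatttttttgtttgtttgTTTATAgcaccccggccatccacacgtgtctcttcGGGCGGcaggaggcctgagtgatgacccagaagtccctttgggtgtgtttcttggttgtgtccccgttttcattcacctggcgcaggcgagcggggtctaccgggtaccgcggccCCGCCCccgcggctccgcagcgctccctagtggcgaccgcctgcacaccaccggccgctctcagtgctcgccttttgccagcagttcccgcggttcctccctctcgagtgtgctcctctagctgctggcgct
Sfrp2: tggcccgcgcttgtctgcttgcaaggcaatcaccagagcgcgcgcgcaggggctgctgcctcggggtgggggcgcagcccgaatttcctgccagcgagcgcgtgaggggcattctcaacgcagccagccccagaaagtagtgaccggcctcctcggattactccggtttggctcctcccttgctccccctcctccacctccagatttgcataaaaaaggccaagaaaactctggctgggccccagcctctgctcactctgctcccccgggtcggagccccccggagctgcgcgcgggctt
Wnt11: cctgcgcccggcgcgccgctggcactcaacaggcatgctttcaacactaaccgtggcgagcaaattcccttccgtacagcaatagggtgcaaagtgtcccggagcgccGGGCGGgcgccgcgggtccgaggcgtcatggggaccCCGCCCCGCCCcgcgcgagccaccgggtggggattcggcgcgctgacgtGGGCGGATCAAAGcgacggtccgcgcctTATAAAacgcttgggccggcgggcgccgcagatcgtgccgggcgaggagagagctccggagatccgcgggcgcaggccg
The Wnt11 window held 4 GC boxes, of which 2 overlap by a base and 1 abuts the TCF/LEF letters at 51 to 45 bases before the start, and a TATA box at 29 to 24 bases before it. The Wif1 window held 2 GC boxes and a TATA box on the minus strand, the Frzb window held 1 GC box, and none of these letters was found in the Sfrp2 window. Among the 45 member windows, 75.6% held a GC box against 35.7% of the 32851 windows of all genes, and their median GC content was 67.3% against 52.7%. TCF/LEF letters were found in 15.6% of the member windows, those of Dkk1, Fzd7, Lef1, Tcf7l2, Wnt11, Wnt3 and Wnt5b, against 16.9% of all windows. A match describes the letters alone.

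Every member that could be tested was fitted in each comparison, which left out only Wnt3 and Dkk4, whose signals lay below the filter of log2 of 50 throughout. A gene was called when its adjusted p was under 0.05 in limma, adjusted over all probe sets tested. With LY294002, 14 of 52 members were higher than in DMSO, where 6.83% of all probe sets were, and 1 was lower, where 1.78% were. With U0126, 7 members were higher against 1.14% of all probe sets, and 2 were lower against 0.792%. With SB202190, no member was called higher by limma against 1.23% of all probe sets, although 6 had an unadjusted p under 0.05, and 2 were lower against 0.706%. With Trichostatin A, 18 members were higher and 10 lower, where 23.0% and 20.6% of all probe sets were. Counted over genes, each by 1 probe set as the members were, the background of higher calls was 8.85%, 1.66%, 1.70% and 27.0% for the 4 inhibitors in this order, and that of lower calls 2.21%, 1.02%, 1.01% and 22.7%. The members' median difference was 0.15 with LY294002, 0.10 with U0126, -0.08 with SB202190 and 0.06 with Trichostatin A. Over all genes, each by 1 probe set, it was 0.010, 0.013, 0.003 and -0.044 in this order. Over all probe sets tested it was -0.02, 0.00, -0.01 and -0.06. All 52 members were above the filter in both groups of every comparison.

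**Figure D1:**
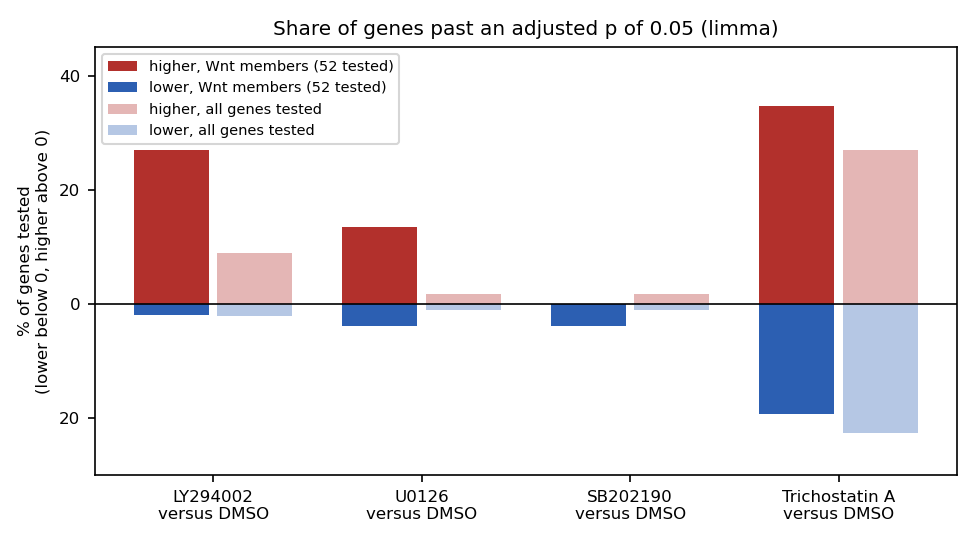
Percentage of genes tested that passed an adjusted p of 0.05 with each inhibitor against DMSO, above 0 for higher and below 0 for lower, for the 52 Wnt members (dark bars) and for all genes tested, 1 probe set each (pale bars). With LY294002, 14 members were higher and 1 lower, while with Trichostatin A 18 were higher and 10 lower, beside 27.0% and 22.7% of all genes.

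Together 32 of the 52 members were called with at least 1 inhibitor, where 53.0% of the 16108 genes tested were. Trichostatin A and no kinase inhibitor called 14 of them (39.4% of all genes), and a kinase inhibitor but not Trichostatin A called 4 (3.58%). Wnt10a was the 1 member called with all 3 kinase inhibitors, and it was lower with each, where 0.180% of all genes were called with the 3 in 1 direction. Frzb, Fzd1, Fzd5, Fzd9, Wif1 and Wnt5a were called in opposite directions with different inhibitors (3.45% of all genes). The 4 comparisons share the DMSO arrays. The count of higher members with LY294002 was 7 without LY294002 replicate 1, where 2.53% of all probe sets were higher, and 8 without DMSO replicate 2 or DMSO replicate 3, where 2.98% and 3.04% were. The count with U0126 was 3 without any 1 of the U0126 arrays or without DMSO replicate 2, and 2 without DMSO replicate 3, and 0.566% to 0.963% of all probe sets were higher in these fits. When the 6 arrays of a comparison were fitted alone, 13 of the calls of members given by array in what follows were lost (adjusted p between 0.0573 and 0.154), which were those of Frzb, Fzd1, Fzd3, Fzd5, Rspo3, Wnt5a and Wnt10a with LY294002, of Dkk3, Fzd9, Nkd1, Rspo3 and Wif1 with U0126 and of Rspo3 with Trichostatin A.

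**Figure D2:**
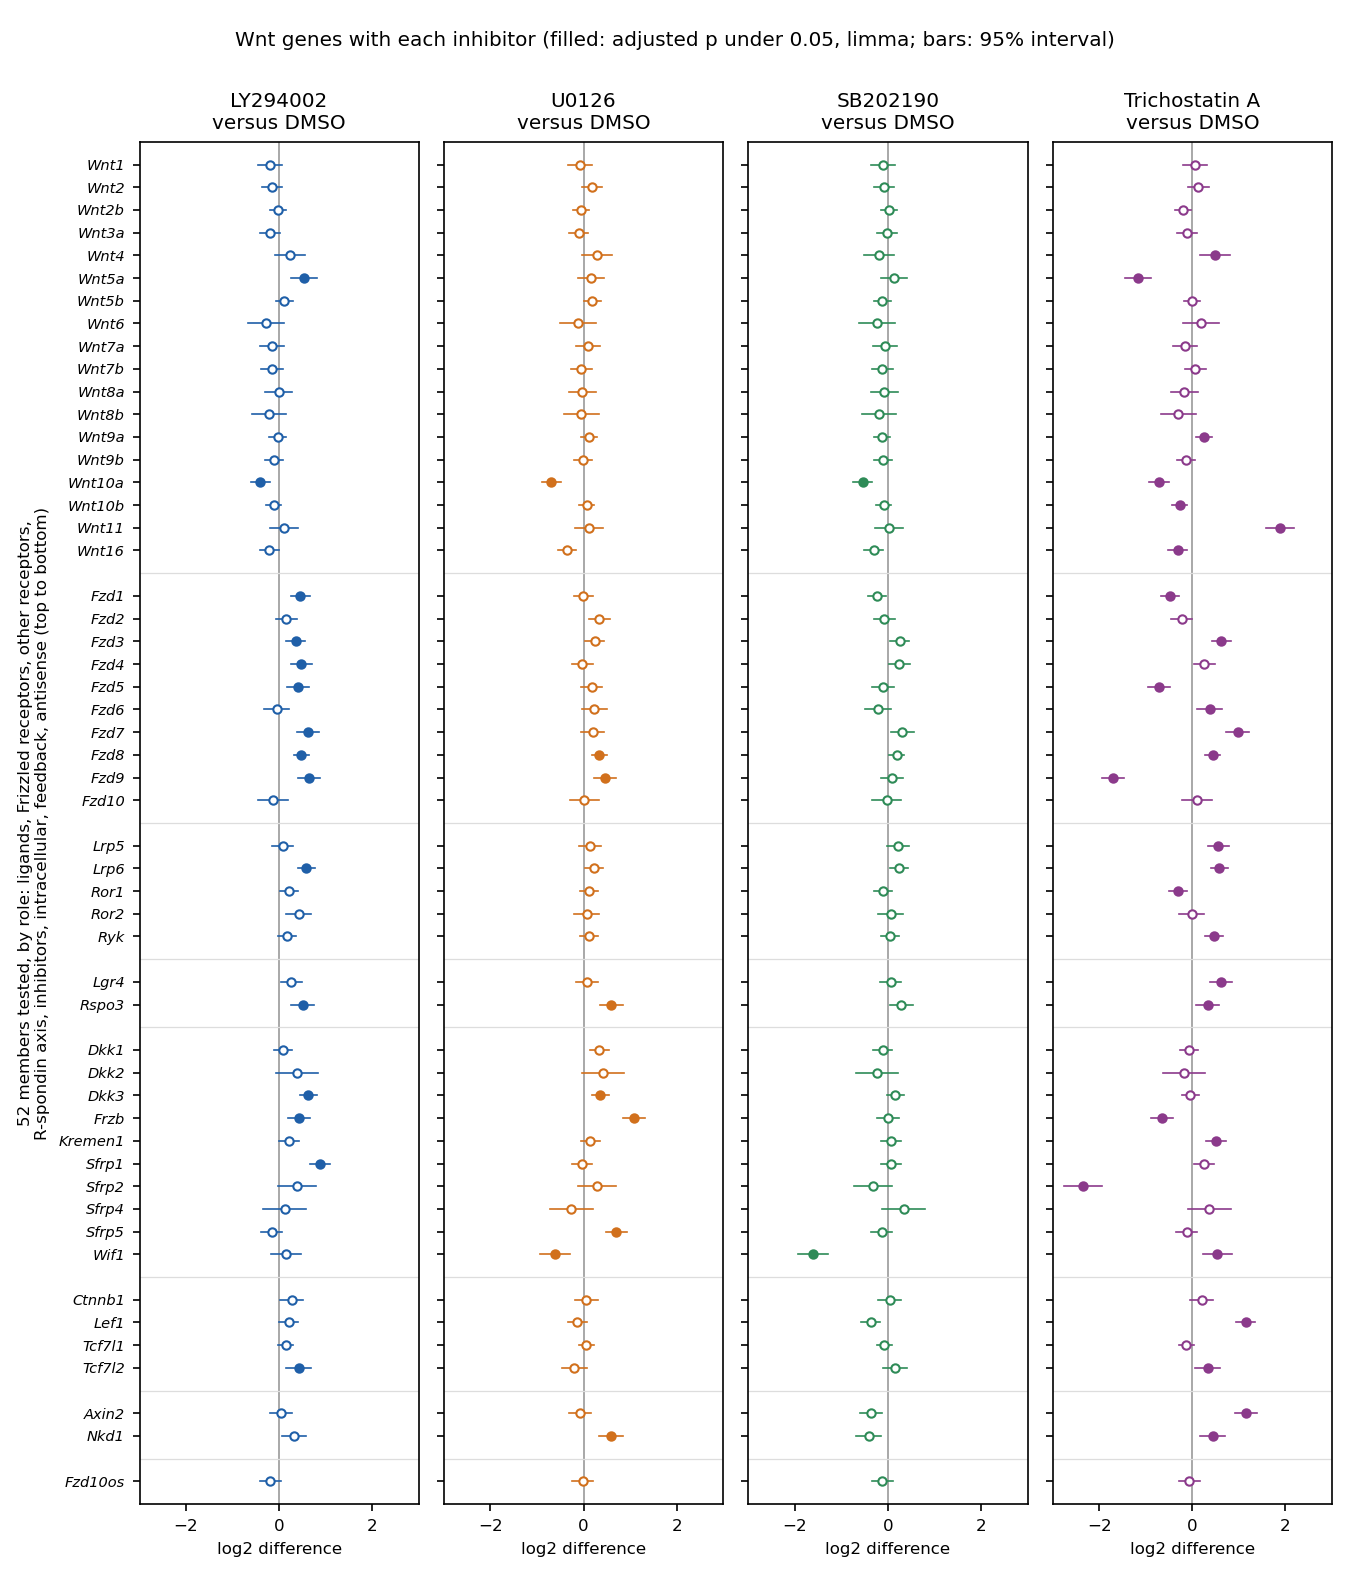
Log2 difference from DMSO, on the horizontal axis, of the 52 members tested, arranged by role down the page, with 1 panel per inhibitor. Points are differences of means over 3 arrays a group and bars are 95% intervals. Filled points passed an adjusted p of 0.05, among them 7 of the 10 Frizzled receptors with LY294002, all higher (8.85% of all genes).

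Among the inhibitors of the pathway each drug moved a different gene most. Sfrp1, a secreted Frizzled-related protein that binds Wnt proteins outside the cell, rose 1.84-fold with LY294002, Frzb rose 2.11-fold with U0126, Wif1 fell 3.04-fold with SB202190 and Sfrp2 fell 5.10-fold with Trichostatin A. Of the 10 inhibitors tested, 3 were higher with LY294002 (8.85% of all genes), and 3 were higher (1.66%) and 1 lower (1.02%) with U0126. With SB202190 1 was lower (1.01%), and with Trichostatin A 2 were higher (27.0%) and 2 lower (22.7%). Sfrp1 read 11.13, 10.89 and 10.84 on the LY294002 arrays, against 10.17, 10.07 and 9.97 on the DMSO arrays. All 3 LY294002 arrays lay above every array of the other 4 treatments, the highest of which was 10.39 with Trichostatin A. The difference from DMSO was 0.88 ± 0.10 (SE, limma, adjusted p = 1.01e-04, n = 3 arrays a group), and 3 of the 4 other probe sets of Sfrp1 were also called higher. With the mean of all probe sets it was 0.58 (adjusted p = 2.55e-04). The intervals of the difference from DMSO were -0.25 to 0.17 with U0126 and -0.14 to 0.28 with SB202190.

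Frzb, which encodes another secreted Frizzled-related protein and is known as a cartilage gene, read 9.94, 9.89 and 10.26 with U0126 and 9.45, 9.34 and 9.32 with LY294002, against 9.09, 8.85 and 8.91 with DMSO. Its Trichostatin A arrays, at 8.26, 8.14 and 8.49, lay below all DMSO arrays, whereas the SB202190 arrays at 8.83, 9.02 and 8.98 overlapped them. The difference was 1.08 ± 0.11 with U0126 (SE, limma, adjusted p = 4.38e-05), 0.43 ± 0.11 with LY294002 (adjusted p = 0.0262) and -0.65 ± 0.11 with Trichostatin A (adjusted p = 1.37e-04). The call with LY294002 was lost without LY294002 replicate 1 or 2 or DMSO replicate 2 or 3 (adjusted p between 0.0588 and 0.116), and with the mean of all probe sets (adjusted p = 0.0542). Sfrp5, of the same family, read 8.84, 9.09 and 9.28 with U0126, against 8.33, 8.44 and 8.34 with DMSO. The U0126 arrays of Sfrp5 lay above those of every other treatment, and the rise was 0.70 ± 0.11 (SE, adjusted p = 0.00142).

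Wif1 encodes a secreted protein that binds Wnt ligands directly. It read 6.59, 6.48 and 6.59 with SB202190 and 7.59, 7.32 and 7.74 with U0126, against 8.43, 7.97 and 8.08 with DMSO. With SB202190 the 3 arrays were the lowest of all 15 and close to each other, and the fall was -1.61 ± 0.15 (SE, limma, adjusted p = 2.85e-05). The U0126 arrays of Wif1 were also all below DMSO, but the difference of -0.61 ± 0.15 passed narrowly (adjusted p = 0.0469) and was lost without any 1 of the U0126 arrays or DMSO replicate 1 or 3, and without the signal filter (adjusted p = 0.0564). With Trichostatin A Wif1 read 8.67, 8.37 and 9.05, which overlapped DMSO, and its rise of 0.54 ± 0.15 (adjusted p = 0.00807) was lost without Trichostatin A replicate 3 (adjusted p = 0.0576). LY294002 left Wif1 at 8.35, 8.32 and 8.23, with a difference of 0.14 and an interval of -0.18 to 0.46.

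Sfrp2, a further secreted Frizzled-related gene, read 8.22, 8.17 and 8.35 with Trichostatin A, against 10.96, 10.60 and 10.23 with DMSO. The Trichostatin A arrays lay far below all others, since the lowest of the remaining 12 was 10.08, and the difference was -2.35 ± 0.19 (SE, limma, adjusted p = 3.49e-08). The 3 kinase inhibitors gave Sfrp2 differences of -0.32 to 0.38, none of them called. Dkk3, the most divergent of the Dickkopf family, read 11.02, 10.92 and 10.99 with LY294002 and 10.68, 10.63 and 10.84 with U0126, against 10.31, 10.35 and 10.39 with DMSO. Both groups were fully above DMSO, and the differences were 0.62 ± 0.09 (SE, adjusted p = 5.73e-04) and 0.36 ± 0.09 (adjusted p = 0.0388). The U0126 call of Dkk3 was lost without any 1 of its 6 arrays (adjusted p between 0.0531 and 0.212) and under quantile normalization (adjusted p = 0.0838). Kremen1, a receptor of Dickkopf proteins, was 0.51 higher with Trichostatin A (adjusted p = 4.77e-04), or 0.28 with the mean of all probe sets (adjusted p = 0.0172), while Dkk1, Dkk2 and Sfrp4 were called in no comparison with DMSO. With the replicate number as a block, Dkk2 and Sfrp2 passed with LY294002 (adjusted p = 0.0277 and 0.0389) and Dkk1 and Dkk2 with U0126 (adjusted p = 0.0337 and 0.0412).

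**Figure D3:**
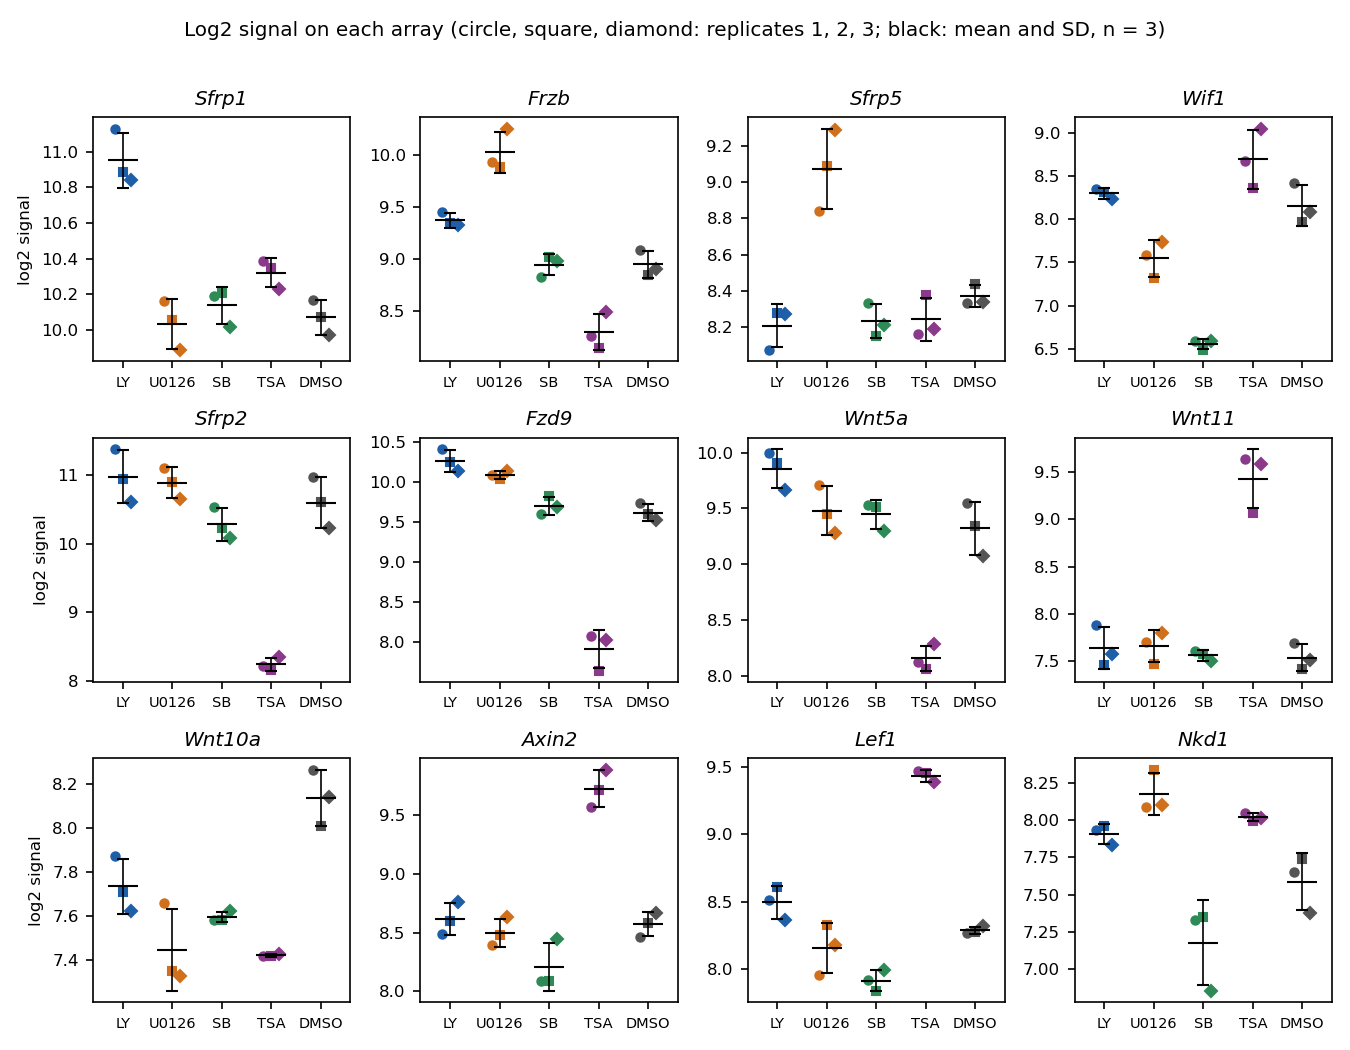
Log2 signal of 12 members on each array, with the 5 treatments along the horizontal axis, the marker shape giving the replicate number and black bars the mean and SD of 3 arrays. Sfrp1 is highest on the LY294002 arrays, Frzb and Sfrp5 on the U0126 arrays and Wnt11, Axin2 and Lef1 on the Trichostatin A arrays, while Wif1 is lowest with SB202190.

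By the probe set chosen for each gene, most of the Frizzled receptors, the membrane proteins that Wnt ligands bind, rose with LY294002. Fzd1, Fzd3, Fzd4, Fzd5, Fzd7, Fzd8 and Fzd9, 7 of the 10, were higher (8.85% of all genes), with differences between 0.36 and 0.64, and none was lower (2.21%). The 3 not called were Fzd2 at 0.16, Fzd6 at -0.05 and Fzd10 at -0.13. The count was 4 to 6 when 1 of the 6 arrays was left out, lowest without LY294002 replicate 1 (2.53% of all probe sets higher). It was 3 when the 6 arrays were fitted alone (1.60%). With the mean of all probe sets the calls of Fzd4, Fzd5 and Fzd7 were lost (limma, adjusted p = 0.0591, 0.171 and 0.0678). The other probe set of Fzd5 and that of Fzd7 did not rise with LY294002. Only Fzd8 and Fzd9 passed with U0126 (1.66% of all genes higher), and no Frizzled receptor with SB202190 (1.70%). With SB202190, 4 receptors had an unadjusted p under 0.05 in the higher direction and 1 in the lower. With Trichostatin A, Fzd3, Fzd6, Fzd7 and Fzd8 were higher (27.0% of all genes) and Fzd1, Fzd5 and Fzd9 lower (22.7%). The LY294002 call of Fzd4 was lost without LY294002 replicate 1 or DMSO replicate 2, with the 6 arrays alone and with the mean of all probe sets (adjusted p = 0.0591), and the U0126 call of Fzd8 without any 1 of its 6 arrays, with the 6 arrays alone and with that mean. The Trichostatin A call of Fzd6 was lost without Trichostatin A replicate 3 or DMSO replicate 2 or 3, and those of Fzd6 and Fzd8 with the mean of all probe sets (adjusted p = 0.416 and 0.126).

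Fzd9 read 10.41, 10.24 and 10.13 with LY294002, 10.08, 10.04 and 10.13 with U0126 and 8.08, 7.64 and 8.03 with Trichostatin A, against 9.74, 9.60 and 9.52 with DMSO. None of the 3 treatments overlapped DMSO, with both kinase inhibitors above it and Trichostatin A below. The differences were 0.64 ± 0.11 (SE, limma, adjusted p = 0.00243), 0.47 ± 0.11 (adjusted p = 0.0400) and -1.70 ± 0.11 (adjusted p = 2.60e-09), the last a 3.25-fold fall. The U0126 call of Fzd9 was lost without any 1 of the U0126 arrays or DMSO replicate 2 or 3. Fzd1 read 11.91, 11.67 and 11.63 with LY294002 and 10.67, 10.85 and 10.87 with Trichostatin A, against 11.39, 11.23 and 11.21 with DMSO. Its arrays were all above DMSO with LY294002, by 0.46 ± 0.09 (adjusted p = 0.00690), and all below with Trichostatin A, by -0.48 ± 0.09 (adjusted p = 4.97e-04). Fzd5 read 8.93, 8.57 and 8.56 with LY294002 and 7.45, 7.48 and 7.72 with Trichostatin A, against 8.34, 8.26 and 8.21 with DMSO. The same opposite placement held, with differences of 0.42 ± 0.11 (adjusted p = 0.0291) and -0.72 ± 0.11 (adjusted p = 4.88e-05), but the LY294002 call was lost without LY294002 replicate 1 or DMSO replicate 2 or 3, and with the mean of all probe sets (adjusted p = 0.171).

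Fzd7 and Fzd3 instead rose with both LY294002 and Trichostatin A. Fzd7 read 9.98, 9.72 and 9.72 with LY294002 and 10.11, 9.996 and 10.37 with Trichostatin A, against 9.42, 9.11 and 9.03 with DMSO. Both sets lay above DMSO, by 0.62 ± 0.12 (SE, limma, adjusted p = 0.00373) and 0.98 ± 0.12 (adjusted p = 2.64e-06). The other probe set of Fzd7 did not move in parallel, its means being 7.21 with LY294002 and 7.17 with Trichostatin A, against 7.21 with DMSO, and with the mean of both the LY294002 call was lost (adjusted p = 0.0678) and the Trichostatin A difference was 0.46 (adjusted p = 0.00122). For Fzd3 the values were 7.59, 7.63 and 7.68 with LY294002 and 8.08, 7.70 and 7.89 with Trichostatin A, against 7.17, 7.36 and 7.29 with DMSO. Neither group overlapped DMSO, and the differences were 0.36 ± 0.10 (adjusted p = 0.0290) and 0.62 ± 0.10 (adjusted p = 5.49e-05). With the mean of all probe sets the Trichostatin A difference of Fzd3 was 0.27 (adjusted p = 0.00149). The Fzd3 call with LY294002 was lost without any 1 of the LY294002 arrays or DMSO replicate 1 or 3 (adjusted p between 0.0595 and 0.0780).

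Lrp6, the co-receptor that passes the canonical signal inward, read 10.53, 10.46 and 10.40 with LY294002 and 10.39, 10.39 and 10.59 with Trichostatin A, against 10.002, 9.79 and 9.84 with DMSO. Both groups were above DMSO throughout, by 0.59 ± 0.09 (SE, limma, adjusted p = 0.00101) and 0.58 ± 0.09 (adjusted p = 4.42e-05). Its relative Lrp5 and the Wnt-binding kinase-like receptor Ryk were higher with Trichostatin A alone, by 0.56 and 0.46, and Ror1, a receptor tyrosine kinase-like protein, was lower by -0.31, a call lost without Trichostatin A replicate 1 (adjusted p = 0.0585). Ror2, which binds Wnt5a, was called in no comparison with DMSO, and its LY294002 difference of 0.42 had an adjusted p of 0.0505, or 0.00562 with the replicate block. Fzd2 passed with U0126 only under that block (adjusted p = 0.0435).

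The R-spondin Rspo3, which strengthens Wnt signals by holding receptors at the surface, was higher with 3 of the inhibitors. It read 9.20, 9.06 and 8.81 with LY294002, 9.21, 8.97 and 9.16 with U0126 and 8.88, 8.71 and 8.95 with Trichostatin A, against 8.75, 8.44 and 8.36 with DMSO. The first 2 groups lay above DMSO, whereas Trichostatin A overlapped it. The differences were 0.51 ± 0.12 (SE, limma, adjusted p = 0.0127), 0.60 ± 0.12 (adjusted p = 0.0103) and 0.33 ± 0.12 (adjusted p = 0.0312). All 3 calls were lost without DMSO replicate 2 or 3. The LY294002 call was lost also without LY294002 replicate 1, the U0126 call without U0126 replicate 1 or 3 and the Trichostatin A call without Trichostatin A replicate 1 or 3 or with the mean of all probe sets (adjusted p = 0.0505). The other probe set of Rspo3 gave -0.04 with LY294002 and 0.01 with Trichostatin A, and the mean of both gave 0.23 with LY294002 and 0.37 with U0126 (adjusted p = 0.0409 and 0.00515). Lgr4, an R-spondin receptor, was higher with Trichostatin A by 0.61 (adjusted p = 2.06e-04), or 0.28 with the mean of all probe sets (adjusted p = 0.00327).

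Of the 18 ligands tested, Wnt5a was higher and Wnt10a lower with LY294002, where 8.85% and 2.21% of all genes were. Wnt10a alone was lower with U0126 (1.02% of all genes) and with SB202190 (1.01%). With Trichostatin A, 3 ligands were higher and 4 lower, or 16.67% and 22.22%, where 27.0% and 22.7% of all genes were. Wnt10a, a canonical ligand, read 7.87, 7.71 and 7.62 with LY294002, 7.66, 7.35 and 7.32 with U0126, 7.58, 7.58 and 7.62 with SB202190 and 7.42, 7.42 and 7.43 with Trichostatin A, against 8.26, 8.01 and 8.14 with DMSO. Every one of the 12 inhibitor arrays was below every DMSO array. The differences were -0.40 ± 0.10 with LY294002 (SE, limma, adjusted p = 0.0175), -0.69 ± 0.10 with U0126 (adjusted p = 7.81e-04), -0.54 ± 0.10 with SB202190 (adjusted p = 0.00759) and -0.72 ± 0.10 with Trichostatin A (adjusted p = 1.35e-05). All 4 are measured against the same 3 DMSO arrays. The LY294002 call of Wnt10a was lost without LY294002 replicate 2 or 3 or DMSO replicate 3 (adjusted p between 0.0567 and 0.0601).

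Wnt5a, a ligand known mainly for signaling without beta-catenin, went opposite ways with 2 of the drugs. It read 9.999, 9.91 and 9.66 with LY294002 and 8.13, 8.06 and 8.28 with Trichostatin A, against 9.55, 9.34 and 9.08 with DMSO. The LY294002 arrays were above DMSO and the Trichostatin A arrays below it, by 0.54 ± 0.13 (SE, limma, adjusted p = 0.0186) and -1.16 ± 0.13 (adjusted p = 1.56e-06). Another 2 probe sets of Wnt5a were called lower with Trichostatin A, by -1.22 and -1.16. The mean of all probe sets gave 0.30 with LY294002 (adjusted p = 0.0424). The call with LY294002 was lost without LY294002 replicate 1 or 2 or DMSO replicate 2 or 3 (adjusted p between 0.0573 and 0.104).

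Wnt11, another ligand of the branch without beta-catenin, read 9.64, 9.07 and 9.58 with Trichostatin A, against 7.69, 7.42 and 7.51 with DMSO. The arrays of the 3 kinase inhibitors lay between 7.46 and 7.88, so that Trichostatin A stood alone. The rise was 1.89 ± 0.14 (SE, limma, adjusted p = 1.33e-08), or 3.71-fold. Wnt4 and Wnt9a were also higher with Trichostatin A, by 0.49 and 0.26, and Wnt10b and Wnt16 lower, by -0.27 and -0.32. The call of Wnt4 was lost without Trichostatin A replicate 3 or DMSO replicate 2, that of Wnt9a without Trichostatin A replicate 2 or DMSO replicate 1 or 2 or with the 6 arrays alone, that of Wnt16 without Trichostatin A replicate 3, and those of Wnt4 and Wnt9a with the mean of all probe sets (adjusted p = 0.302 for each). Under the replicate block Wnt16 passed as lower with U0126 and SB202190 (adjusted p = 0.0153 and 0.0312) and Wnt6 as lower with LY294002 (adjusted p = 0.0310).

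Inside the cell, Ctnnb1 showed no call. It read 13.36, 13.12 and 12.99 with LY294002, 13.04, 12.88 and 12.91 with U0126, 12.84, 12.97 and 12.97 with SB202190 and 13.13, 13.01 and 13.12 with Trichostatin A, against 13.18, 12.82 and 12.67 with DMSO. All 4 groups overlapped DMSO, and the intervals of the difference were 0.02 to 0.52, -0.19 to 0.31, -0.21 to 0.29 and -0.05 to 0.45 in that order. Without DMSO replicate 1 the difference of Ctnnb1 passed with LY294002 and with Trichostatin A (adjusted p = 0.0187 and 0.0164). These are transcript levels, and the beta-catenin protein was not measured.

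Axin2, a scaffold of the complex that degrades beta-catenin and a widely used readout of canonical signaling, read 9.57, 9.71 and 9.88 with Trichostatin A and 8.09, 8.09 and 8.44 with SB202190, against 8.46, 8.58 and 8.67 with DMSO. Trichostatin A lay above every other array and SB202190 below every DMSO array. The difference was 1.15 ± 0.11 with Trichostatin A (SE, limma, adjusted p = 3.62e-07) and -0.36 ± 0.11 with SB202190 (adjusted p = 0.137, and 0.00466 with the replicate block). With the mean of both its probe sets the Trichostatin A difference of Axin2 was 0.58 (adjusted p = 6.04e-06). Lef1, a DNA-binding partner of beta-catenin, read 9.47, 9.45 and 9.38 with Trichostatin A and 7.92, 7.83 and 7.99 with SB202190, against 8.27, 8.28 and 8.32 with DMSO. The same order of groups was seen, with differences of 1.15 ± 0.09 (adjusted p = 3.68e-08) and -0.37 ± 0.09 (adjusted p = 0.0526, and 0.0197 with the block). Its other probe set was also higher with Trichostatin A, by 1.42. The LY294002 and U0126 differences of these genes were 0.04 and -0.07 for Axin2 and 0.21 and -0.13 for Lef1, none of them called.

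Nkd1, a feedback inhibitor that binds Dishevelled, read 8.09, 8.34 and 8.10 with U0126, 8.05, 7.995 and 8.02 with Trichostatin A and 7.33, 7.35 and 6.85 with SB202190, against 7.65, 7.74 and 7.38 with DMSO. U0126 and Trichostatin A lay above DMSO and SB202190 below it. The differences were 0.59 ± 0.13 (SE, limma, adjusted p = 0.0185), 0.43 ± 0.13 (adjusted p = 0.00970) and -0.41 ± 0.13 (adjusted p = 0.122, and 0.0159 with the replicate block). With LY294002 the difference of Nkd1 was 0.32 (adjusted p = 0.126, and 0.0264 with the block). With the mean of all probe sets Nkd1 was higher by 0.38 with U0126 and by 0.24 with Trichostatin A (adjusted p = 0.0109 and 0.0144). The U0126 call was lost without U0126 replicate 2 or DMSO replicate 3, and the Trichostatin A call without DMSO replicate 3 (adjusted p = 0.0599). Tcf7l2, another partner of beta-catenin, was higher with LY294002 by 0.42 (adjusted p = 0.0485) and with Trichostatin A by 0.33 (adjusted p = 0.0452), yet 1 of its 3 other probe sets was called lower with Trichostatin A, by -0.33. Both calls of Tcf7l2 were lost without DMSO replicate 2 or 3, without the filter, with the 6 arrays alone and with the mean of all probe sets (adjusted p between 0.0520 and 0.310). The LY294002 call was lost too without LY294002 replicate 1 or 2 and under quantile normalization, and the Trichostatin A call without Trichostatin A replicate 1 or 3. With the block, the members called lower with SB202190 numbered 6 instead of 2, the others being Wnt16, Nkd1, Axin2 and Lef1, while the share of all probe sets called lower was 1.93% instead of 0.706%.

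Inhibitors were then compared with each other, which answers whether their effects on a gene differed. LY294002 against U0126 gave 8 members higher and 2 lower (3.99% and 1.65% of all probe sets), and LY294002 against SB202190 gave 12 higher (3.06%) and none lower (1.54%), with no member lower at an unadjusted p under 0.05 either. SB202190 against U0126 gave 7 lower (2.68%) and none higher (2.53%), although 3 were higher at an unadjusted p under 0.05. LY294002 against Trichostatin A gave 14 higher and 13 lower (20.3% and 19.7%). Over genes, the background of higher calls was 4.91%, 3.81%, 3.32% and 23.6% for these comparisons in turn, and that of lower calls 2.36%, 2.19%, 3.59% and 23.0%. With the replicate block SB202190 against U0126 gave 15 calls, and the share of all probe sets called in either direction was 9.17%, against 5.22% without the block. The calls of LY294002 against U0126 numbered 6 without LY294002 replicate 1 (2.68% of all probe sets, against 5.64% with all arrays). Those of LY294002 against SB202190 numbered 7 without LY294002 replicate 1 or SB202190 replicate 1 or 2 (2.83%, 2.41% and 2.49%, against 1579 of 34341 probe sets with all arrays), and those of SB202190 against U0126 numbered 4 without SB202190 replicate 1 (3.04%).

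Sfrp1 was higher with LY294002 than with U0126 by 0.92 (limma, adjusted p = 7.65e-05), than with SB202190 by 0.81 (adjusted p = 1.95e-04) and than with Trichostatin A by 0.63 (adjusted p = 5.99e-05). Sfrp5 was lower with LY294002 than with U0126 by -0.86 (adjusted p = 2.04e-04) and lower with SB202190 than with U0126 by -0.84 (adjusted p = 1.13e-04). For Frzb the differences were -0.65 for LY294002 against U0126 (adjusted p = 0.00248) and -1.08 for SB202190 against U0126 (adjusted p = 1.48e-05). Wif1 was lower with SB202190 than with U0126 by -0.99 (adjusted p = 5.83e-04), and higher with LY294002 than with SB202190 by 1.75 (adjusted p = 7.66e-06) and than with U0126 by 0.75 (adjusted p = 0.00707). Nkd1 differed by -1.001 between SB202190 and U0126 (adjusted p = 9.95e-05) and by 0.73 between LY294002 and SB202190 (adjusted p = 0.00237), or by -0.53 and 0.37 with the mean of all probe sets (adjusted p = 3.43e-04 and 0.00864). Among the receptors, Fzd1 was higher with LY294002 than with U0126 by 0.46 and than with SB202190 by 0.70 (adjusted p = 0.00785 and 3.91e-04), whereas the Fzd9 difference between LY294002 and U0126 was not called, at 0.18. Against Trichostatin A, LY294002 was higher by 2.73 for Sfrp2, 2.34 for Fzd9 and 1.70 for Wnt5a and lower by -1.79 for Wnt11, -1.11 for Axin2 and -0.94 for Lef1. The mean of all probe sets gave -0.62 for Axin2.

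**Figure D4:**
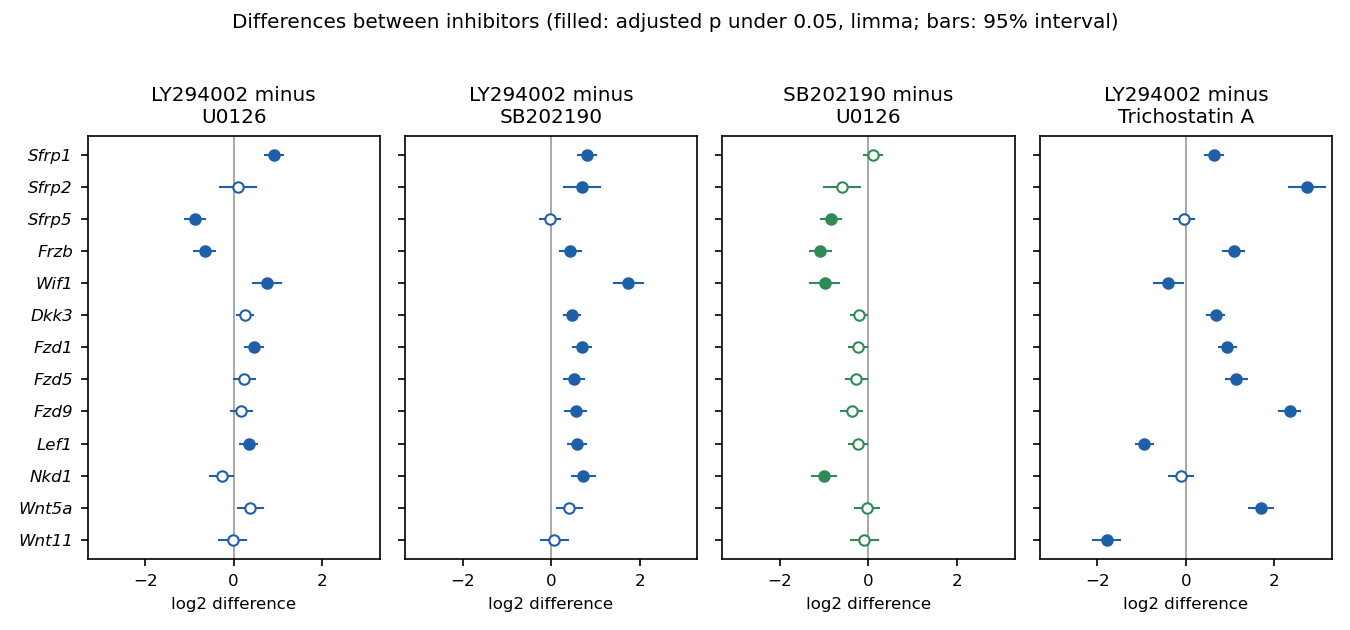
Log2 difference between inhibitors, on the horizontal axis, of 13 members, with the first-named inhibitor of each panel title minus the second and 3 arrays a group. Bars are 95% intervals and filled points passed an adjusted p of 0.05, among them Sfrp1 in the 3 panels with LY294002 and Sfrp5 in the 2 with U0126.

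Of 86 further genes of Wnt signaling, taken from a list of pathway components and targets, 83 were tested with each kinase inhibitor and 85 with Trichostatin A. With LY294002, 21 were higher and 2 lower, or 25.3% and 2.41% of those tested, where 8.85% and 2.21% of all genes were. That total held 5 of 20 genes of the Dishevelled and destruction complex group and 4 of 12 nuclear cofactors, all higher. Also higher were 4 of 8 other secreted or membrane modulators, 3 of 12 planar polarity genes and 1 of 3 ligand export genes. Of 15 target genes 3 were higher and 1 lower, and of 7 calcium branch genes 1 and 1. None of 6 genes of the R-spondin group was called. Fosl1, a Wnt-responsive AP-1 gene, read 8.52, 8.33 and 8.23 with LY294002 and 8.48, 8.57 and 8.57 with U0126, against 9.32, 9.25 and 9.49 with DMSO. Both were below DMSO, by -0.99 ± 0.11 (SE, limma, adjusted p = 7.17e-05) and -0.81 ± 0.11 (adjusted p = 3.81e-04). Sostdc1, which encodes a secreted antagonist of BMP and Wnt signals, rose by 0.98 with LY294002 (adjusted p = 1.44e-04), the glypican Gpc3 by 0.64 and the ligand Bmp4 by 0.62. With U0126, 8 were higher and 3 lower, or 9.64% and 3.61%, where 1.66% and 1.02% of all genes were, the largest after Fosl1 being Dact1, which binds Dishevelled, at 0.75, the planar polarity gene Prickle1 at 0.65 and Cthrc1, a secreted protein that binds Wnt and Frizzled, at 0.63. The LY294002 total was 10 without LY294002 replicate 1 or DMSO replicate 3 (3.73% and 3.95% of all probe sets, against 8.62% with all arrays) and 12 without LY294002 replicate 2 or DMSO replicate 2 (5.68% and 4.10%). The U0126 total was 6 or 7 without any 1 of the U0126 arrays or DMSO replicate 2 or 3 (1.07% to 1.42% of all probe sets, against 1.93%), and 18 with the replicate block (4.35%). The call of Dact1 was lost without U0126 replicate 2 or DMSO replicate 3 and with the 6 arrays alone (adjusted p = 0.0589), and that of Prickle1 with the mean of all probe sets (adjusted p = 0.167).

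With SB202190, 2 of the further genes were higher and 3 lower, or 2.41% and 3.61%, where 1.70% and 1.01% of all genes were. The total was 16 with the replicate block (5.52% of all probe sets, against 1.94%) and 3 without SB202190 replicate 1 or 2 or DMSO replicate 2 or 3 (0.761% to 0.905%). The matricellular gene Ccn4, known as Wisp1 and a Wnt target, read 9.67, 9.54 and 10.03 with SB202190, against 10.87, 10.53 and 10.76 with DMSO. The groups did not overlap, and the difference was -0.97 ± 0.16 (SE, limma, adjusted p = 0.00345). Lgr6, an R-spondin receptor, and Id2, an inhibitor of DNA binding, rose by 0.86 and 0.71, and Nfatc1 of the calcium branch fell by 0.45. With the mean of all probe sets these were 0.54 for Lgr6 and -0.28 for Nfatc1. The SB202190 call of Id2 was lost without SB202190 replicate 1 or 2 or DMSO replicate 2 or 3 (adjusted p between 0.0502 and 0.1197). With Trichostatin A, 41 were higher and 17 lower, or 48.2% and 20% of those tested, where 27.0% and 22.7% of all genes were. These counts still hold 2 higher genes and 1 lower gene that passed the filter through 1 of the 2 groups alone. The shares of all genes were not cleared of such genes either. Ccn5, a relative of Ccn4, read 7.38, 7.83 and 7.83 with Trichostatin A, against 10.87, 10.83 and 10.80 with DMSO. Its fall of -3.15 ± 0.11 was 8.90-fold (adjusted p = 1.55e-12). Id2 rose 2.83-fold. The R-spondin Rspo1 and the planar polarity cadherin Celsr1, also among the 4 largest called changes, and the nuclear cofactor Pygo1, called lower, passed the filter through 1 of the 2 groups alone, so that nothing is read from their calls. Rspo1 averaged 6.9985 with Trichostatin A against 5.33 with DMSO, and Celsr1 6.5005 against 5.01, the DMSO means being below the filter. These changes stood beside the fall of all 12 chondrocyte markers with Trichostatin A. The summed signal of the skeletal muscle markers was 10.41 to 10.49 with Trichostatin A, against 11.31 to 12.47 with DMSO, that of the fibroblast and perichondrium markers 14.88 to 15.05 against 15.29 to 15.53, that of the macrophage and osteoclast markers 11.09 to 11.12 against 11.56 to 11.70, and that of the hypertrophic markers 11.78 to 13.10 against 13.42 to 13.58. The summed signal of the epithelial markers was instead higher with Trichostatin A, at 11.8 to 12 against 11.2 to 11.45 with DMSO. That of the endothelial markers overlapped DMSO, at 8.86 to 9.07 against 8.76 to 8.93. The part of any of these markers in these results was not tested.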

How the data were processed

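Total RNA of 15 cultures was measured on Affymetrix mouse arrays. The deposited values are log2 signals that the authors had normalized across the arrays, with a value for every probe set on each. The methods name GC-RMA for the deposited arrays and RMAExpress for the gene set analysis, and which made these values was not settled. Signals carry no counts, and precision is limited by the number of arrays. After removal of 64 controls from 45101 probe sets, 34945 carry 1 gene symbol, 932 carry several and 9160 none. Some items are not reported here.

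Probe sets entered a comparison if one of its groups averaged log2 of 50 or more. Treatment means were estimated from the 15 arrays together with limma 3.58.1 (R 4.3.3, 10 residual degrees of freedom), with empirical Bayes moderation, two-sided tests and Benjamini-Hochberg adjustment over the probe sets tested. The fit was tested on simulated data with independent noise on each array, which leaves out the correlation of same-numbered arrays. An exact permutation test of 3 against 3 arrays cannot go below 0.1, so none was used. Errors are standard errors of the fit and intervals cover 95%. The members and lists were chosen with earlier results of these data known. Values by array are given for the 5 members with the largest rise and fall among calls whose groups do not overlap, for Axin2, Lef1, Nkd1 and Ctnnb1, for members called with all 3 kinase inhibitors or in opposite directions, and for the 3 largest called differences of each comparison between inhibitors. Of the further genes the 4 with the largest called change are named.

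Deviations from the treatment means of same-numbered arrays correlated at 0.407 to 0.771 for LY294002 and DMSO, 0.329 to 0.719 for U0126 and DMSO and 0.237 to 0.327 for SB202190 and DMSO, and at 0.219 to 0.684 between kinase inhibitors. For Trichostatin A and DMSO they were 0.242, 0.480 and 0.0268 for replicates 1, 2 and 3, and the lowest for LY294002 and Trichostatin A was -0.113. The numbers were therefore taken to pair the arrays of the kinase inhibitors and DMSO, from the data and from the 3 independent experiments. Those of Trichostatin A were not taken as paired, and whether they are was not settled. Alternatives were a block for the replicate number, quantile normalization, no filter, a filter on the overall mean, a trend and robust prior, the 6 arrays of 2 groups alone, averaging a gene's probe sets, and omission of each array in turn.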

Additional observations from a re-analysis of the deposited data

How the results depend on the processing

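Only 3 arrays per treatment limit what can be called. Fitted on the 6 arrays of 2 groups alone, the members called numbered 6 higher and 0 lower with LY294002, and 2 and 1 with U0126. Of all probe sets, 1.60% were then higher and 0.411% lower with LY294002, and 0.488% and 0.430% with U0126. Such fits called 6 members for LY294002 against U0126 (3.01% of all probe sets) and 11 for SB202190 against U0126 (6.15%). Further genes called numbered 5 with LY294002 (2.01%) and 4 with U0126 (0.919%). With the mean of all probe sets, 9 members were higher and 1 lower with LY294002, and 15 further genes were called. In that fit 5.80% of all genes and remaining probe sets were higher, 2.27% lower and 8.07% called. Without the filter 1 member was lower with U0126, where 0.586% of all probe sets were. Quantile normalization gave 4 members lower with SB202190 (1.46% of all probe sets), 11 for SB202190 against U0126 (7.48%) and 13 further genes with SB202190 (3.72%). Over all probe sets it gave 2309 higher and 1410 lower with LY294002, against 2362 and 616 for the values as deposited, 1573 and 1172 against 1376 and 569 for LY294002 against U0126, and 1133 and 1010 against 1051 and 528 for LY294002 against SB202190.

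With LY294002 the replicate block gave 4609 higher and 1761 lower over all probe sets, the 6 arrays alone 554 and 142, and the omission of 1 array 874 to 4089 and 315 to 1121. The replicate block gave 2 members lower with LY294002 (5.10% of all probe sets), 6 lower with SB202190 (1.93%) and 15 for SB202190 against U0126 (9.17%). It gave 18 further genes with U0126 (4.35%) and 16 with SB202190 (5.52%). With Trichostatin A, whose same-numbered arrays were not taken as paired with DMSO, Fzd2, Wnt2b, Sfrp1, Fzd4 and Sfrp4 passed under the block.

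Leaving out 1 array gave, for LY294002, 7 to 16 members higher and 0 to 2 lower (without DMSO replicate 1, 2, and without LY294002 replicate 2 or 3 or DMSO replicate 3, 0), for U0126 2 to 5 and 1 to 2 (without any U0126 array or DMSO replicate 1 or 3, 1), for SB202190 0 and 2, and for Trichostatin A 13 to 20 and 10. Between inhibitors it gave 6 to 11 for LY294002 against U0126, 7 to 10 against SB202190 and 19 to 24 against Trichostatin A, and 4 to 8 for SB202190 against U0126. Further genes numbered 10 to 27 with LY294002 (3.73% to 15.0% of all probe sets) and 6 to 8 with U0126 (1.07% to 1.85%). They numbered 3 to 6 with SB202190 (0.761% to 2.43%) and 51 to 58 with Trichostatin A (37.8% to 44.4%).

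Signs turned only for uncalled values near 0. Quantile normalization gave -0.0300 for Axin2 with LY294002, and -0.0376 and -0.0327 for Ctnnb1 with U0126 and SB202190. The mean of all probe sets gave -0.0363 for Axin2 with LY294002, and -0.0385 and -0.0702 for Ctnnb1 and Sfrp1 with SB202190. Leaving out 1 array gave -0.0299 to 0.1064 for Axin2 and -0.0213 to 0.1907 for Wnt11 with LY294002, -0.0547 to 0.2016 for Ctnnb1, -0.0530 to 0.0510 for Fzd1 and -0.1000 to 0.0390 for Sfrp1 with U0126, -0.0744 to 0.1819 for Ctnnb1, -0.0543 to 0.0674 for Frzb and -0.0365 to 0.1012 for Wnt11 with SB202190, and -0.0955 to 0.0062 for Dkk3 with Trichostatin A. The cause was not tested.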
